A study of Mus musculus with 20 samples.

Results

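The 10 genes described here carry the insulin signal in the liver cell or act in the release of glucose. They are the insulin receptor Insr, the receptor substrates Irs1 and Irs2, the transcription factor Foxo1, the co-activator Ppargc1a, the secreted protein gene Igfbp1, the enzymes Pck1 and Fbp1 and the transporters Slc37a4 and Slc2a2. They were chosen by symbol and joined by Ensembl identifier from the male table of 56884 genes and the female table of 18149 genes. All 10 were in both tables and all 10 were tested in both sexes. Livers came from mice aged 11 to 14 weeks in which the XTR gene trap allele of Midn, a gene for a nuclear protein that brings transcription factors to the proteasome, was crossed to Albumin-Cre, which acts in hepatocytes. Midn-T mice had the genotype label Midn TR, the trapped allele. The controls were titled WT and had the genotype label Midn XTR, the allele before recombination, and whether they carried Cre is not given in the labels. RNA-seq compared 3 WT and 3 Midn-T libraries in each sex. ATAC-seq, which marks open chromatin, compared 2 and 2, and its groups follow library names and characteristics, since the titles of 5 of the 8 ATAC-seq samples disagree with them.

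Insulin binds its receptor on the hepatocyte, the receptor phosphorylates the IRS proteins, and the kinase AKT is switched on through PI3K. AKT phosphorylates FOXO1, which then leaves the nucleus. In the fasted state FOXO1 stays on DNA and, with the co-activator PGC-1alpha, drives genes such as Igfbp1, Irs2, Insr, Pck1 and the glucose-6-phosphatase gene G6pc1. The last steps of glucose output move glucose 6-phosphate into the endoplasmic reticulum through the SLC37A4 carrier, cleave it there and let glucose leave the cell through GLUT2, the product of Slc2a2.

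A different single gene passed the test in each sex. Slc2a2 rose in male Midn-T livers, with a log2 fold change of 0.64 (SE 0.19), and Igfbp1 fell in female Midn-T livers, by 0.79 on the log2 scale (SE 0.14). The other 9 genes in each sex did not pass. Called genes had a Benjamini-Hochberg adjusted p under 0.1 from the DESeq2 Wald test of the authors' deposited tables. Among all tested genes 1.21% were called in males (108 up and 75 down) and 0.237% in females (12 up and 31 down), beside 1 of the 10 genes in each sex. At an unadjusted p under 0.05 the counts were 4 of 10 in males, where 9.86% of all tested genes were, and 3 of 10 in females, where 2.96% were. The log2 fold changes of the 10 genes had a median of 0.12 in males, with 7 above 0, and of -0.18 in females, with 9 below 0. Over all tested genes the median was -0.01 in males and -0.0014 in females. The fold changes of 4 genes had the same sign in both sexes, and the share over all genes tested in both sexes was not counted.

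**Figure D1:**
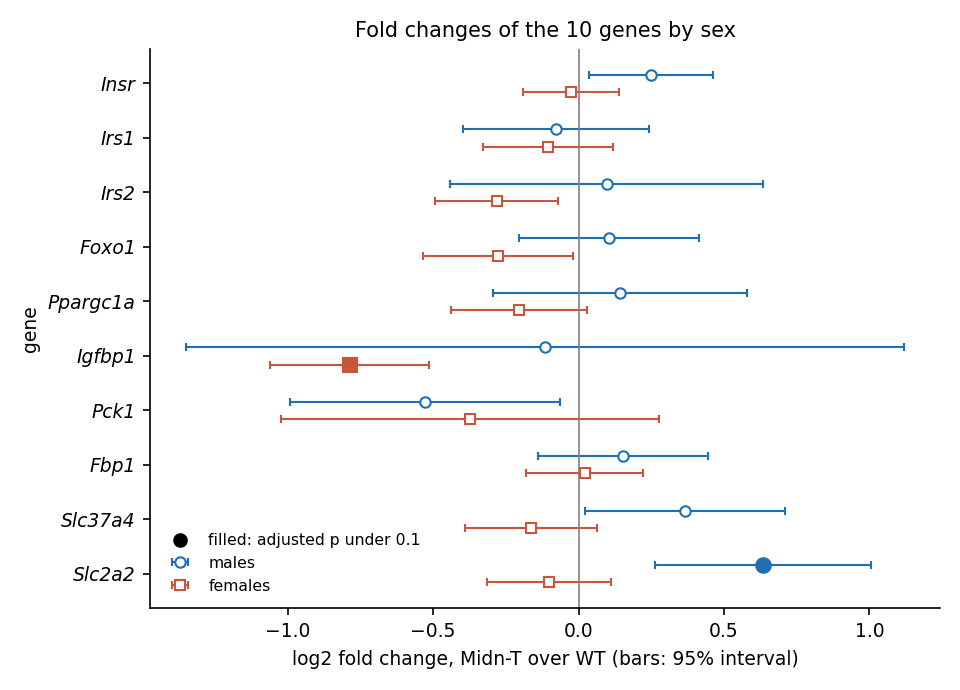
Log2 ratio of Midn-T to WT (x axis) for each of the 10 genes (y axis), with circles for males, squares for females and bars for the 95% interval. Only Slc2a2 in males (0.64) and Igfbp1 in females (-0.79) are filled, which marks an adjusted p under 0.1, and the widest bar is that of Igfbp1 in males.

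The tables give 1 mean per gene over the 6 libraries of a sex and no value of a single library, so neither the values of single mice nor the depth of a library can be shown, and how far mice of 1 group differed is seen in the SE alone. The median SE was 0.18 over the 10 genes in males, against 0.19 over all tested genes, and 0.12 in females, against 0.18. Midn itself, counted over all exons together, differed by 0.10 (SE 0.12) in males and 0.00083 (SE 0.10) in females on the log2 scale. This total showed no fall in Midn-T livers, so it gives no check of the genotype labels, and the reason was not tested. The study also followed the trap by qPCR, GFP, RNA-seq read tracks and exon usage, which were not analysed here. All 10 hepatocyte markers were listed in both sexes with means of 7593 or more normalized counts. In whole liver, fewer cells of a type and less RNA per cell cannot be told apart.

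The levels of the 10 genes, as mean normalized count per kb of exon, spanned a wide range that was similar in order in the 2 sexes. Pck1 was highest at 28776 in males and 26059 in females, and Fbp1 followed at 8790 and 10156. Igfbp1 stood at 2563 and 2577 and Slc2a2 at 2158 and 2275. Slc37a4 (941 and 864) and Insr (839 and 862) came next. Irs2 (288 and 405), Foxo1 (276 and 240) and Irs1 (193 and 250) were lower, and Ppargc1a was lowest (74.3 and 111). Only Foxo1 and Irs1 changed places between the sexes. The means carry no error in the tables, so whether neighbours in this order differ was not tested, and the tables of the 2 sexes were normalized separately.

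**Figure D2:**
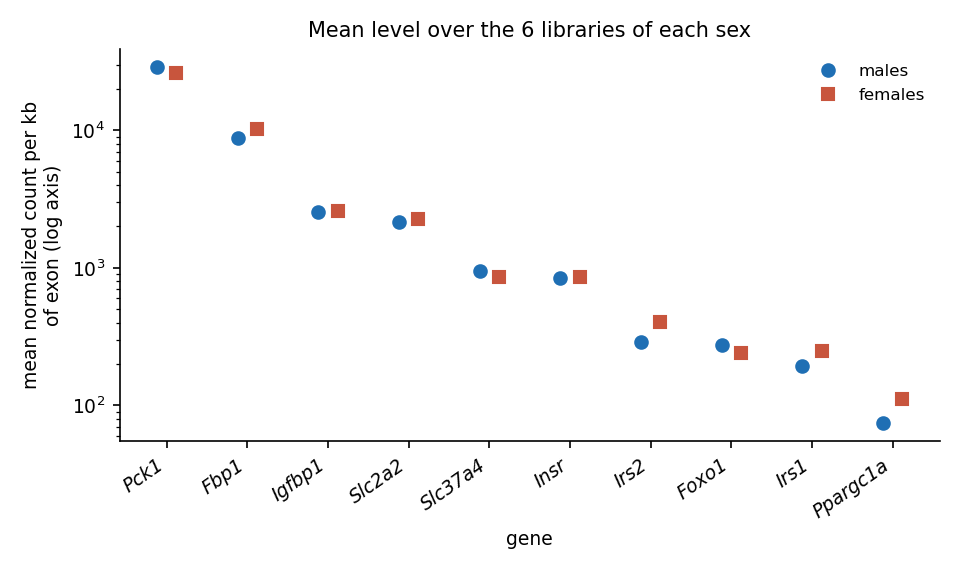
Mean normalized count per kb of exon (y axis, log scale) of each gene (x axis), with circles for the 6 male and squares for the 6 female libraries. Pck1 lies at 28776 and 26059 and Ppargc1a at 74.3 and 111.

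The insulin receptor gene Insr (ENSMUSG00000005534, GRCm39 chr8:3172061-3329647, minus strand) had a mean of 11563 normalized counts in males and 11872 in females. Its log2 fold change was 0.25 (SE 0.11, 95% interval 0.04 to 0.46, unadjusted p = 0.0220) in males, which did not pass the adjustment (adjusted p = 0.377). In females it was -0.03 (SE 0.08), with an interval from -0.19 to 0.14. The male interval therefore lay above 0 and the female one spanned it, with the smallest SE of the 10 genes in each sex.

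The substrates Irs1 and Irs2 link the receptor to PI3K. Irs1 (ENSMUSG00000055980, chr1:82210822-82269338) had log2 fold changes of -0.08 (SE 0.16) in males and -0.11 (SE 0.11) in females. Neither differed from 0 beyond its error, and the intervals, -0.40 to 0.24 and -0.33 to 0.12, do not hold a 2-fold change. Irs2 (ENSMUSG00000038894, chr8:11034681-11059499, minus strand) is also a FOXO1 target and is known to rise in the fasted liver. In females its log2 fold change was -0.28 (SE 0.11, 95% interval -0.49 to -0.07), a fold of 0.823, with an unadjusted p of 0.00888 and an adjusted p of 1.00. In males it was 0.10 (SE 0.28), with an interval from -0.44 to 0.64 that contains the female value.

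Foxo1 (ENSMUSG00000044167, chr3:52175757-52260642) encodes the factor that insulin keeps out of the nucleus, a step that its mRNA level does not show. Its mRNA had a log2 fold change of 0.10 (SE 0.16) in males and -0.28 (SE 0.13, 95% interval -0.54 to -0.02, unadjusted p = 0.0363, adjusted p = 1.00) in females. Ppargc1a (ENSMUSG00000029167, chr5:51611592-51725068), the PGC-1alpha gene, had 0.14 (SE 0.22) in males and -0.20 (SE 0.12, unadjusted p = 0.0858) in females. Both genes overlap noncoding genes on the same strand, Gm38034 for Foxo1 and Gm42614, Gm42615 and Gm43605 for Ppargc1a, so reads in the shared parts are uncertain.

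Igfbp1 (ENSMUSG00000020429, chr11:7147651-7152546) encodes a secreted protein that binds insulin-like growth factors and is known to fall quickly after insulin. In females it had the 8th smallest p-value of 18149 genes. The mean of 4381 normalized counts and the fold change together imply 5548 normalized counts in WT and 3214 in Midn-T livers, which are computed group levels and not measured ones. The fold was 0.579 (95% interval 0.480 to 0.700), with an adjusted p of 3.28e-05. With a t reference on 4 degrees of freedom in place of the normal one, 0 of all tested genes were called in either sex, Igfbp1 and Slc2a2 included. Since that reference called no gene at all, it does not set Igfbp1 or Slc2a2 apart from other genes. In males the mean was almost the same, 4357, but the log2 fold change of -0.12 had an SE of 0.63, above the SE of 98.2% of all tested genes and 4.53 times that in females. The male interval ran from -1.35 to 1.12. It contains the female value, so these male libraries could not show whether Igfbp1 changed.

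The letters CAAAACA, known as the core of the insulin response sequence through which FOXO proteins act on Igfbp1, were searched on both strands in the 250 bases before each RefSeq start site. RefSeq entries of the table (GRCm38.p6) matched 9 of the 10 genes, Insr being the one not matched. The letters stood in the window of Igfbp1, Irs1 and Irs2, 3 of the 9 genes, against 5.56% of 32851 promoters. The forkhead letters GTAAACA stood in 3.17% of all promoters, the cyclic AMP response letters TGACGTCA in 1.55% and the glucocorticoid response element in 0.00913%, each in 0 of the 9 genes. For Ppargc1a the searched window ended at a RefSeq start that lies at -13803 bases from the start of its canonical transcript. The bases just before that canonical start were not searched. The forkhead and insulin response letters were counted apart. A match describes the letters only, and the lack of an exact match does not exclude a variant of the site. The glucocorticoid response element stood in 3 of the 32851 promoters, so its 0 of 9 says nothing about these genes. The 30 bases around each match are shown in the direction of the gene because they carry the site by which these genes are usually described, with the matched letters in capitals (TGTTTTG is CAAAACA on the other strand). Their GRCm39 positions are chr11:7147667-7147696 for Igfbp1, chr1:82269254-82269283 and chr1:82269175-82269204 for Irs1 and chr8:11058949-11058978 for Irs2, found by an exact match of the RefSeq window. All 30 bases of each lie before the RefSeq start but within the first exon of the canonical GENCODE transcript, which starts further upstream.
Igfbp1, -120 to -91: agagctcacaagCAAAACAaacttattttg
Irs1, -123 to -94: ggctccgtcacgTGTTTTGctcctctggag
Irs1, -44 to -15: gcagccgccgctTGTTTTGgttggggctct
Irs2, -49 to -20: agagtcacgtgtTGTTTTGctcttagttca
Of the 3 genes with the letters, Igfbp1 passed the test in females, Irs2 had an unadjusted p under 0.05 there and Irs1 did not. None of the 3 had an unadjusted p under 0.05 in males. Of the genes without the letters, Foxo1 was under 0.05 in females, and Slc2a2, Pck1 and Slc37a4 were in males. The shares of all tested genes under 0.05 were 2.96% in females and 9.86% in males. Whether fold changes follow the letters was not tested.

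Pck1 (ENSMUSG00000027513, chr2:172994744-173001066) encodes cytosolic phosphoenolpyruvate carboxykinase, which commits carbon to glucose. It ranked 29th by mean among the tested male genes, at 106528 normalized counts. Its log2 fold change was below 0 in both sexes, at -0.53 in males (SE 0.24, 95% interval -0.99 to -0.06) and -0.37 in females (SE 0.33, 95% interval -1.02 to 0.28). The male value had an unadjusted p of 0.0263 and an adjusted p of 0.405, so neither sex passed. Fbp1 (ENSMUSG00000069805, chr13:63012567-63036263), the fructose-1,6-bisphosphatase gene, had 0.15 (SE 0.15) in males and 0.02 (SE 0.10) in females. The female interval of Fbp1, -0.18 to 0.22, limits any change there to a small one. For G6pc1, the phosphatase of the final step, the male log2 fold change was 0.03 (SE 0.73) and the female one -0.82 (SE 0.49, unadjusted p = 0.0957), and neither passed.

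Of the transporter genes, Slc2a2 rose in males, and neither passed the test in females. Slc2a2 (ENSMUSG00000027690, chr3:28752051-28785508) had a mean of 14893 normalized counts in males and a fold of 1.55 (95% interval 1.20 to 2.01), with an unadjusted p of 7.99e-04 and an adjusted p of 0.0824. The mean and fold imply 11668 normalized counts in male WT and 18119 in male Midn-T livers. The call rests near its threshold, since the adjusted p was 0.160 over every gene with a p-value and Slc2a2 was not called at 0.05. In females Slc2a2 had a log2 fold change of -0.10 (SE 0.11, 95% interval -0.31 to 0.11). The male estimate lies outside that interval, which takes no account of the male SE. In the z-test of the difference described below, Slc2a2 did not pass (adjusted p = 0.162). Slc37a4 (ENSMUSG00000032114, chr9:44308144-44314265) had 0.37 (SE 0.18, unadjusted p = 0.0378, adjusted p = 0.463) in males and -0.16 (SE 0.12) in females. The microRNA gene Mir7085 lies in it on the same strand and Trappc4 overlaps it on the other, and counting used the strand.

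Male and female fold changes were set against each other gene by gene with a z-test on the 2 within-sex estimates, which share no library. At an adjusted p under 0.1, 0 of the 10 genes differed between the sexes by this test, against 0.337% of 15129 genes. At an unadjusted p under 0.05, 3 of 10 did, against 7.09%. The male fold change was above the female one in 9 of the 10 genes. How many of the 15129 genes had the male fold change above was not counted, so the 9 of 10 has no share beside it. Slc2a2 had the largest difference, 0.74 (SE 0.22, 95% interval 0.31 to 1.16), with the 70th smallest p of all genes (adjusted p = 0.162). By p-value, Slc37a4 came next with 0.53 (SE 0.21, adjusted p = 0.456) and then Insr with 0.27 (SE 0.14, adjusted p = 0.691). For Igfbp1 the difference was 0.67 (SE 0.64), with an interval from -0.59 to 1.94 and an adjusted p of 0.944. Igfbp1 thus passed in females and not in males, but its 2 fold changes were not shown to differ.

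**Figure D3:**
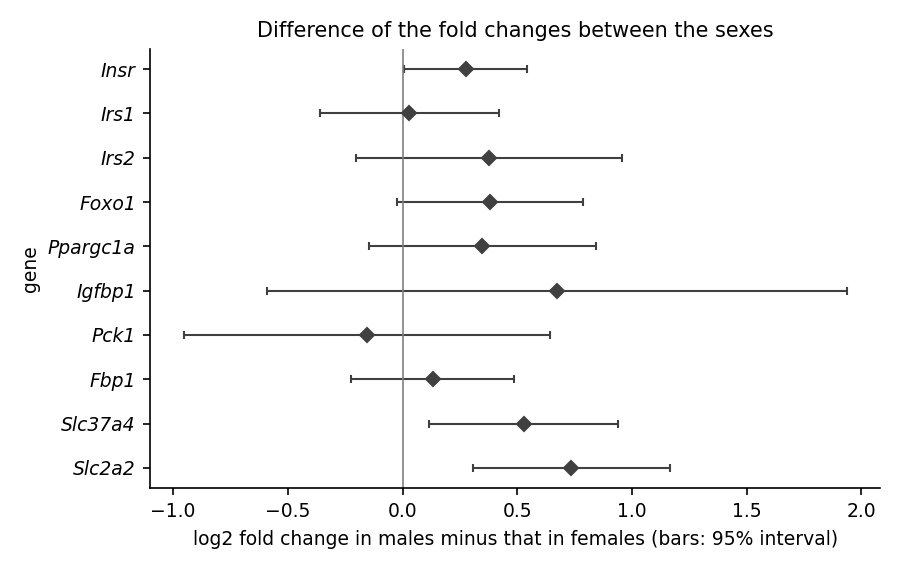
Log2 fold change in males minus that in females (x axis) for each gene (y axis), with bars for the 95% interval. The intervals of Slc2a2, Slc37a4 and Insr lie above 0, and that of Igfbp1 spans it.

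Of the 396 listed ATAC-seq peaks, 4 had one of the 10 genes as the protein-coding gene with the nearest start site, 1 of 179 in the male list and 3 of 217 in the female list. The male list held peaks at an unadjusted p under 0.05 and was named exploratory, while the female list held peaks at an FDR under 0.1, so the lists do not compare the sexes. They give a position and a direction for each peak and no signal.

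The male peak at Slc2a2 (chr3:28759735-28760234, 500 bases) was listed as increased, the direction in which the mRNA moved. Its centre lay 7933 bases past the start of the canonical transcript, and it covered all 93 bases of exon 2 of 11, which is coding, with intron on both sides. On the opposite strand it lies in the long noncoding gene 1700112D23Rik. The central 300 bases (chr3:28759835-28760134, plus strand, GRCm39) are printed because this is the one listed peak in an exon of the 10 genes, with exon 2 in capitals.
Slc2a2 peak: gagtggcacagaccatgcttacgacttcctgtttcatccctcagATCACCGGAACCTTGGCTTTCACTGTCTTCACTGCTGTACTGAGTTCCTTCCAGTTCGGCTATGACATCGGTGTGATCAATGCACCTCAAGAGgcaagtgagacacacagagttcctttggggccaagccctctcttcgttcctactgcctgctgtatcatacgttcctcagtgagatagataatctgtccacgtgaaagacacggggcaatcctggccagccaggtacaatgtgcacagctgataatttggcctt
None of the 4 motifs stood in the 500 bases of this peak. Among the 94 tested genes nearest to the 102 increased male peaks, 3 were called up (Slc2a2, Fasn and Ces1e) and 0 down (9 up and 3 down at an unadjusted p under 0.05), against 0.712% of all tested male genes called up and 0.494% called down. Among the 72 nearest to the 77 decreased male peaks, 0 were called up and 1 down (Dnmt1), with 1 up and 5 down at an unadjusted p under 0.05.

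The female peak at Igfbp1 (chr11:7153359-7153858) was listed as decreased, again the direction of its mRNA. Its centre lay 5957 bases past the start and 1062 bases past the end of the gene, outside any annotated gene. The start of Gm73927 was nearest when noncoding genes were counted too. The central 300 bases (chr11:7153459-7153758, plus strand) are shown as the region beside the gene with the smallest p of the 10. None of the 4 motifs stood in it, so all letters are in lower case.
Igfbp1 peak: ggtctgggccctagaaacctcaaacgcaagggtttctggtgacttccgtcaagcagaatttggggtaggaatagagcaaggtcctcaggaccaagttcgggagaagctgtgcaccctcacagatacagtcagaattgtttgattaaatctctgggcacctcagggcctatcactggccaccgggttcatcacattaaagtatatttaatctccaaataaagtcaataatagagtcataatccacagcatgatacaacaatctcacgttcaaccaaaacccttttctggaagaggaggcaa

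Both other female peaks had Irs2 as their nearest protein-coding gene but lay far downstream of it, 109703 and 152170 bases past its start. Both were listed as decreased, and the Irs2 fold change in females was below 0 without passing the test. They lie in long noncoding genes, the first (chr8:10949547-10950046) in 4833411C07Rik and Gm2814 and the second (chr8:10907080-10907579) in Gm32540. The first holds the forkhead letters and the second the insulin response letters, both on the minus strand. Forkhead letters stood in 14 of the 67 decreased female peaks (20.9%) and in 4 of the 150 increased ones (2.67%), and insulin response letters in 15 (22.4%) and 14 (9.33%). These letters do not tell FOXO from other forkhead factors such as FOXA1 and FOXA2, whose motifs the paper reports in the decreased female peaks. Which factor binds there was not tested. The central 300 bases of each Irs2 peak (chr8:10949647-10949946 and chr8:10907180-10907479, plus strand) are shown because they hold the matched letters. The matches are in capitals (TGTTTAC is GTAAACA on the other strand).
Irs2 peak, nearer: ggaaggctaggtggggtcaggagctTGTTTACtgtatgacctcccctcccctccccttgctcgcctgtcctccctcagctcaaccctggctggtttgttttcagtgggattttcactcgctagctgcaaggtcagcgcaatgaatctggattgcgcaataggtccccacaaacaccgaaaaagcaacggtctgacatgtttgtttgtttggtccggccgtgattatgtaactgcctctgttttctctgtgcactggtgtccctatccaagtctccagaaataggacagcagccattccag
Irs2 peak, farther: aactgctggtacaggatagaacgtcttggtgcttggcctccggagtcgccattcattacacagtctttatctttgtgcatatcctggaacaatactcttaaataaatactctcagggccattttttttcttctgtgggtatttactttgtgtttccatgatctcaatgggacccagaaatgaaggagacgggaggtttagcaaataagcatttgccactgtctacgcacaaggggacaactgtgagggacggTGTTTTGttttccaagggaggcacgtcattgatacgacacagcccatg
Among the 57 tested genes nearest to the 67 decreased female peaks, 3 were called down (Igfbp1, Fkbp5 and Gpcpd1) and 0 up (8 down and 0 up at an unadjusted p under 0.05), against 0.171% of all tested female genes called down and 0.0661% called up. Among the 60 nearest to the 150 increased female peaks, 0 were called in either direction, with 1 up and 1 down at an unadjusted p under 0.05. One further peak, listed as increased in females, lay within 100 kb of the start of Insr, on its upstream side, but nearest to Arhgef18.

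**Figure D4:**
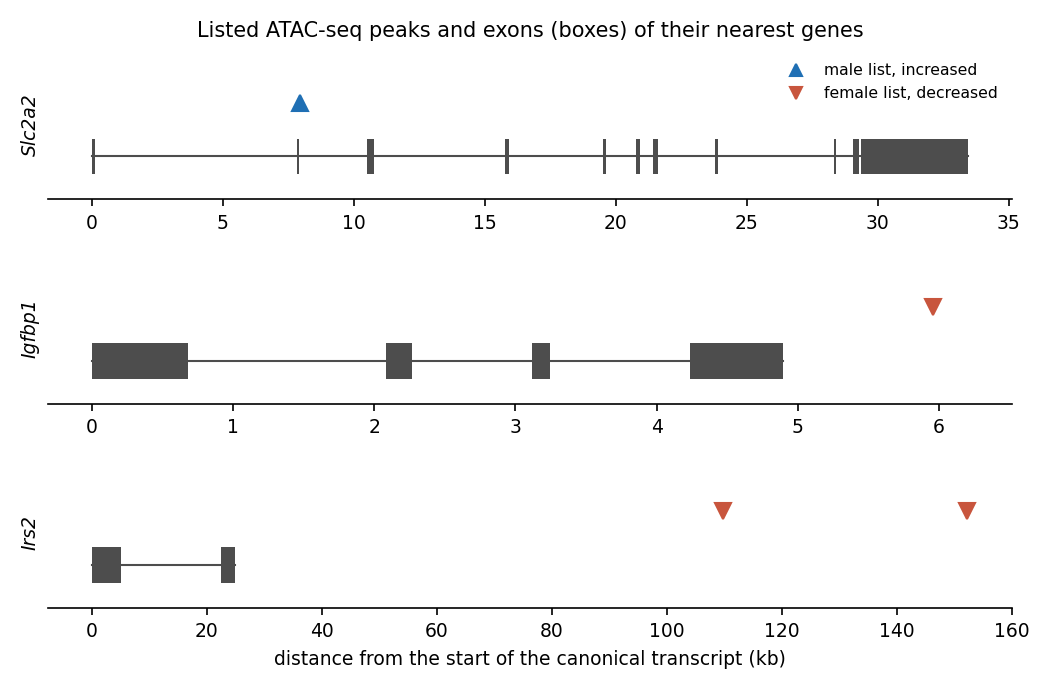
Listed ATAC-seq peaks (triangles) and exons (boxes) of Slc2a2, Igfbp1 and Irs2 against the distance from the start of the canonical transcript (x axis, kb, a separate scale for each gene). The increased male peak sits on exon 2 of Slc2a2, the decreased female peak just past the end of Igfbp1, and both decreased female peaks of Irs2 more than 100 kb from its start.

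The other genes of the pathways were read from 10 lists with 214 symbols in all, some in more than 1 list and 2 of them older symbols of genes also in the lists, which matched no row. In males 11 of the 207 tested genes were called, and in females 5 of 209, against 1.21% and 0.237% of all tested genes. The lists were written with earlier results of these data known, so these counts are no test of the pathways. The 43 insulin signaling genes had 0 called in either sex in the DESeq2 test. At an unadjusted p under 0.05, 6 were in males (3 up and 3 down) and 2 in females, both down. The list had a median of 0.02 in males and -0.02 in females. The smallest male p-values were those of the AKT phosphatase Phlpp2 (-0.45, SE 0.15, adjusted p = 0.177) and the receptor phosphatase Ptpn1 (-0.35, SE 0.13, adjusted p = 0.237), followed by Insr. In females they were those of Irs2, Foxo1 and Mtor, the last with -0.15 (SE 0.11).

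Of the 25 tested FOXO1 targets, Igfbp1 in females was the single call in either sex. The median was 0.03 in males and -0.02 in females, and 14 of the 25 were below 0 in females. Angptl4, an inhibitor of lipoprotein lipase, had -0.45 (SE 0.14, adjusted p = 0.391) there. Txnip had 0.49 (SE 0.24, adjusted p = 0.488) in males. Klf15, Gadd45a, Pdk4 and Tat also had an unadjusted p under 0.05 in females, of which Gadd45a and Pdk4 were above 0.

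In the gluconeogenesis and glucose output list, 23 of 32 tested genes were above 0 in males (median 0.16) and 24 of 31 below 0 in females (median -0.07). Slc2a2 was the 1 call in males and 0 were called in females (2 at an unadjusted p under 0.05), where the transaminase gene Got1 came closest (-0.54, SE 0.15, adjusted p = 0.171). In males the carrier genes Slc25a11 (0.29, SE 0.11) and Mpc1 (0.32, SE 0.15) had an unadjusted p under 0.05 with Slc37a4, and Ldha (-0.49, SE 0.20) did so with Pck1, of which none passed the adjustment.

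Among 16 genes of glucose uptake and glycolysis, 2 rose in males, the pyruvate dehydrogenase kinase gene Pdk1 (0.92, SE 0.22, adjusted p = 0.0105) and the liver pyruvate kinase gene Pklr (0.89, SE 0.24, adjusted p = 0.0467). The list had a median of 0.21 in males and 0.01 in females, where 0 were called and 2 had an unadjusted p under 0.05. Of the 34 genes of glucagon and cAMP signaling and co-regulators, 0 were called in either sex in the DESeq2 test, while 4 in males and 2 in females had an unadjusted p under 0.05. The smallest p-values of that list were those of Ppara in males (0.30, SE 0.12, adjusted p = 0.339) and Nr0b2 in females (0.41, SE 0.13, adjusted p = 0.452).

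Among the binding proteins of the insulin-like growth factors, Igfbp1 fell in females and Igfbp5 rose in males (1.06, SE 0.21, adjusted p = 5.37e-04). Igfbp3 had -0.34 (SE 0.12, adjusted p = 0.767) in females and Igfbp2 had 0.25 (SE 0.13, adjusted p = 0.543) in males.

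Lists of genes named as high in the fasted or in the fed liver were read because several of the 10 genes follow food intake. Whether each listed gene, Rgs16 and Ppp1r3g included, is higher in the state its list names was not tested here. Both lists were written with earlier results of these data known, so their counts and medians are no test of feeding state. Of all tested genes, 0.712% were called up in males, and 0.0661% were called up and 0.171% down in females. Of the fed list, 5 of 18 genes rose in males (Rgs16, Pklr, Acss2, Elovl6 and Fasn), with a median of 0.36 and 15 of 18 above 0. In females Pnpla3 rose (1.43, SE 0.29) and Ppp1r3g, a glycogen targeting subunit gene, fell (-1.30, SE 0.15), with a median of 0.19 and 15 of 18 above 0. Of the fasted list, 1 of 16 tested genes rose in males (Cyp4a10, 1.21, SE 0.29) and 2 of 17 fell in females (Igfbp1 and Fkbp5, the latter -0.66, SE 0.18, adjusted p = 0.0816), with medians of 0.12 and -0.17. The hour of collection and the feeding state are not given in the sources used here, and their part in the Igfbp1 and Slc2a2 results was not tested. Beside them, the clock list had medians of 0.19 in males and 0.06 in females. Of 14 glucocorticoid receptor targets, Sult1e1 rose in both sexes and Fkbp5 fell in females, with medians of -0.11 in males and -0.15 in females.

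**Figure D5:**
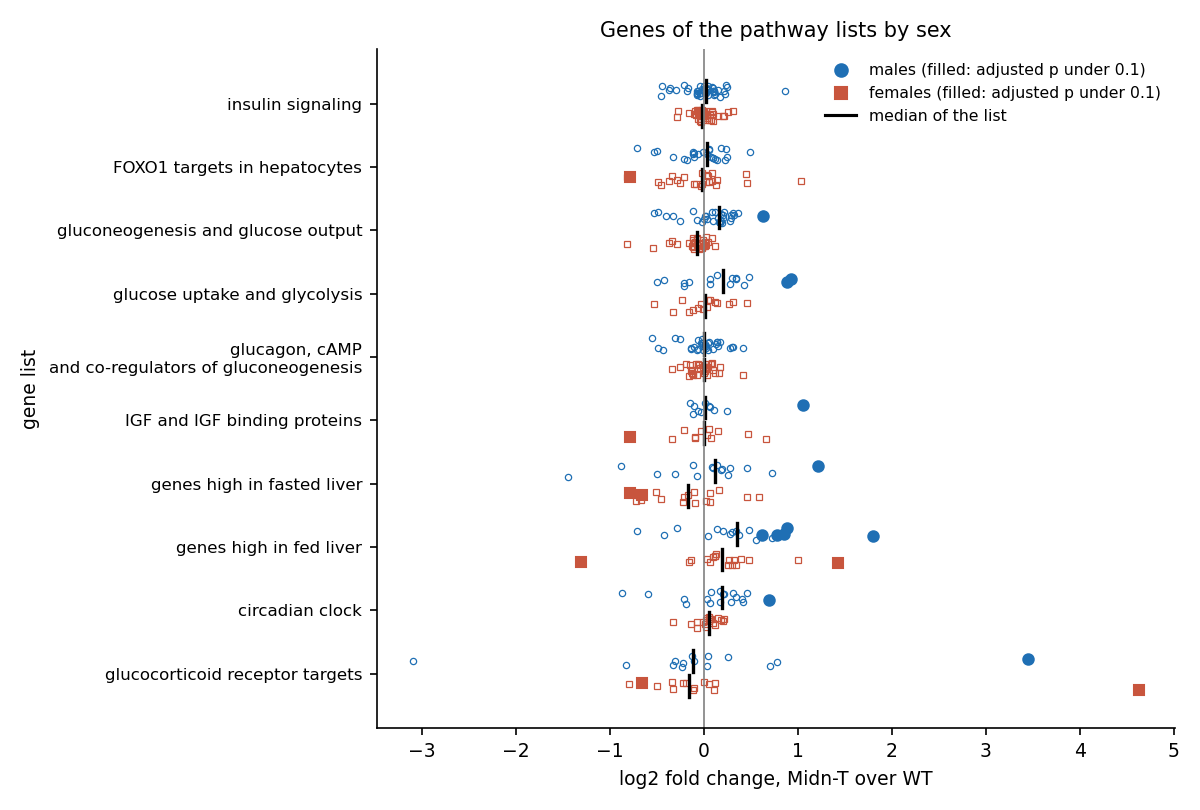
Log2 ratio of Midn-T to WT (x axis) of the tested genes of each of the 10 lists (y axis), with circles for males, squares for females, filled points for an adjusted p under 0.1 and black lines for list medians. Insulin signaling genes cluster around 0 without a call, and the fed list is shifted to the right with 5 calls in males. The lists were written with earlier results of these data known.

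Beside the Slc2a2 result in males, markers of other cells also had values away from 0. All 12 Kupffer cell and leukocyte markers were below 0 in males (median -0.78, 0 called, 6 with an unadjusted p under 0.05), while 11 of 12 were above 0 in females (median 0.12, 0 at an unadjusted p under 0.05). Their means summed to 15381 normalized counts over the male libraries and 15348 over the female ones. Sums for each genotype are not given in the tables. Their part in the results was not tested. The 10 hepatocyte markers had medians of -0.03 in males and -0.09 in females with 0 called and 1 in each sex at an unadjusted p under 0.05. The 5 red blood cell markers were below 0 in males (median -0.25) and above 0 in females (median 0.14). All tested cholangiocyte markers, 5 in males and 6 in females, were above 0 (medians 0.29 and 0.40, 0 called, 1 and 2 at an unadjusted p under 0.05). Of the 9 sinusoidal endothelial and 8 stellate cell markers, 0 were called in either sex, with medians from -0.16 to 0.04 and 1 gene of each list at an unadjusted p under 0.05 in 1 sex. Of the 5 adipocyte markers, 1 was tested in males and 4 in females, and 0 were called at either threshold. Of the 10 pancreas markers, Ins1, Ins2 and Amy2a2 were listed at 0 in males, and only Cela2a was listed in females.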

How the data were processed

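RNA-seq covered 3 WT and 3 Midn-T livers per sex and ATAC-seq 2 and 2. For RNA-seq the authors used STAR on GRCm39 (2.7 in the submitters' processing notes), counted unique reads per Ensembl gene with HTSeq by strand (reverse) and fitted DESeq2 separately to males and females. The deposited signal column is the mean over 6 libraries of counts divided by size factors. The deposited log2 columns hold the Midn-T to WT fold change and its standard error, as the authors' DESeq2 fit estimated them. The deposited score is the Wald statistic. The deposited p-value columns hold the two-sided Wald p-values and adjusted values. These comparison columns are used since the tables hold no values per library. For ATAC-seq the authors aligned with STAR, removed duplicates, merged MACS2 peaks, set them to 500 bases, counted reads in them (featureCounts) and tested them in edgeR after TMM scaling. The peak lists hold positions and directions only.

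Benjamini-Hochberg adjustment was repeated over genes that carry an adjusted value in the tables, from which it differed by at most 1.82e-05. Genes under 0.1 were called. The sexes were compared with a two-sided z-test on the 2 fold changes. Intervals are 95% normal intervals. Replicates are separate mice as far as the labels tell. Levels were divided by the union of exons in GENCODE M39. Peaks were joined to the nearest start site of a protein-coding gene, with file starts read as counted from 0. Motifs were exact matches. The number of columns that could not be matched was 0. The tools were matplotlib 3.10.9, statsmodels 0.14.6, scipy 1.17.1, pandas 2.3.3 and numpy 2.4.6 under Python 3.11.15, and the z-test and motif search were tested on simulated data.

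The members, lists and alternatives were chosen with earlier results of these data known. Named genes were the 10 members, from each list those called or, where fewer than 3 were called in a sex, up to 3 with the smallest p-value, genes nearest to the same peak, and G6pc1. Some genes of the lists are not reported here. Other genes with an unadjusted p under 0.05 were named after their values were seen. Alternatives were a threshold of 0.05, other adjustment sets, a mean of at least 100, a rescaled Wald statistic, a t reference, centring, other rules for the nearest gene and a longer promoter.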

Additional observations from a re-analysis of the deposited data

How the results depend on the processing

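No paired analysis was possible because the tables hold no values per library, and leaving out a replicate could not be run for the same reason. Centring, the mean filter and adjustment over the genes tested in both sexes kept 1 called member in each sex. In males the count of members was 0 at a threshold of 0.05, with adjustment over every gene with a p-value, with the Wald statistic divided by its robust SD and with a t reference on 4 degrees of freedom, since Slc2a2 then missed the threshold. In females it was 2 with the robust SD, which added Irs2 (adjusted p = 0.0842), and 0 with the t reference. Called list genes in males numbered 6 at 0.05, 5 with the robust SD and 0 with the t reference, against 11, and in females 13 with the robust SD and 0 with the t reference, against 5. Over all genes the male count of 183 became 86 at 0.05, 94 over every gene, 53 with the robust SD and 0 with the t reference, and the female count of 43 became 173 and 0 with the last 2. The count of genes that differed between the sexes, 51, became 0 with a t reference on 8 degrees of freedom. With noncoding start sites counted, 1 peak (that at Slc2a2) was nearest to a member, against 4. Centring, the one setting that alters fold changes, turned the sign of 0 of the 10 members. Depth per library is unknown.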

Other observations

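Nr0b2, the gene of the co-repressor SHP, had log2 fold changes of opposite sign in the 2 sexes, -0.55 (SE 0.23) in males and 0.41 (SE 0.13) in females. Neither passed the test within a sex, and the difference of -0.97 (SE 0.27) had an adjusted p of 0.0939 in the z-test over 15129 genes. Among the genes of the pathway lists, Rgs16 was the other gene whose difference between the sexes passed, at 1.93 (SE 0.19).

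Cyp4a10, a fatty acid hydroxylase gene of the fasted list, rose in males (1.21, SE 0.29) and had 0.07 in females, with a difference of 1.15 (SE 0.33) that did not pass (adjusted p = 0.139). The difference of Pdk1, 0.79 (SE 0.25), did not pass either (adjusted p = 0.244).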
